A study of Mus musculus with 10 samples.

Results

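Kdelr3 and 8 genes of protein folding in the endoplasmic reticulum (ER) were followed in nascent RNA: Hspa5, Hsp90b1, Dnajb9, Sdf2l1, Pdia4, Creld2, Herpud1 and Xbp1. These 9 genes of 24386 in the tables were taken by name. Kdelr3 was selected on its total counts at 24 h and 0 h in these same samples, where it was higher at 24 h, so that difference is a description here and carries no test. All 9 passed the filter on low counts, and 8 had enough allelic reads for a test of the B6 share, with Sdf2l1 the exception.

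The RNA came from TX1072 cells of the wild-type genotype, a female embryonic stem cell (ESC) line with one C57BL/6 (B6) and one Mus musculus castaneus (Cast) set of chromosomes. Cells grew on gelatin in DMEM with 15% serum, LIF and 2i, and doxycycline (DOX, 1 µg/ml) was added 24 h after plating. Groups were 0, 4, 8, 12 and 24 h of DOX with 2 replicates each (10 samples), and TT-seq read the RNA that took up 4-thiouridine (0.5 mM) within 5 min. DOX switches on Xist, the non-coding RNA that silences an X chromosome, from the B6 X in every group after 0 h. No sample received DOX without an inducible Xist, so the drug, Xist RNA and hours in culture cannot be told apart. In bulk RNA, fewer cells that transcribe a gene cannot be told apart from less RNA per cell.

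The ER folds secreted and membrane proteins. When unfolded proteins build up there, the sensors IRE1, PERK and ATF6 start the unfolded protein response (UPR), in which XBP1, ATF6 and ATF4 raise transcription of chaperones, disulfide isomerases and degradation factors. Many soluble ER proteins end in the signal KDEL, and KDEL receptors in the Golgi bind this signal and return them to the ER. Mammals carry the receptor genes Kdelr1, Kdelr2 and Kdelr3. ESCs make these proteins without stress, as all secretory cells do.

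The promoters of 5 members are printed because they hold letters bound by the UPR factors, and because Kdelr3, the member with the largest change, has a different motif from the chaperones. The sequences are RefSeq promoters of build GRCm38.p6 and run 5′ to 3′ along the strand of the gene. All 9 members matched by symbol. Each promoter was searched on both strands from 250 bases before to 50 bases after the start. The motifs were the ER stress response element ERSE (CCAAT, 9 bases of any kind, then CCACG), ERSE-II (ATTGG, 1 base of any kind, then CCACG), the UPR element UPRE (TGACGTGG) and the amino acid response element CARE (TGATGCAA). ERSE, ERSE-II and the reverse complement of UPRE share the letters CCACG. Capitals mark the matches, and no match overlapped another in these promoters.
Kdelr3, chr15:79516333-79516407, + strand, UPRE read on the opposite strand: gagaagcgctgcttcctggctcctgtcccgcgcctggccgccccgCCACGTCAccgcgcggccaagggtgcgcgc
Hspa5, chr2:34771990-34772089, + strand, ERSE: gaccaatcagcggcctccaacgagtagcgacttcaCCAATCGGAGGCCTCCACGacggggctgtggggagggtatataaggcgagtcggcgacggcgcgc
Hsp90b1, chr10:86705524-86705684, − strand, ERSE once on each strand: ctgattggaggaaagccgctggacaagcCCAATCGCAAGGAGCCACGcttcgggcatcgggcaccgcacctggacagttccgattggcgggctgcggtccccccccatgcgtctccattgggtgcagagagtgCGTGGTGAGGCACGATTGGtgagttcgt
Creld2, chr15:88819486-88819556, + strand, ERSE on the opposite strand: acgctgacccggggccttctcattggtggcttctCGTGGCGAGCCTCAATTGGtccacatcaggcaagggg
Herpud1, chr8:94386279-94386398, + strand, CARE on the opposite strand and then ERSE-II: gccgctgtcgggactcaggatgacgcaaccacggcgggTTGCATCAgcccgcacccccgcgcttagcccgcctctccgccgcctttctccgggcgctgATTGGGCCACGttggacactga

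The UPRE of Kdelr3 lay 30 to 23 bases before the start, and this motif was in 0.676% of all 32851 promoters. ERSE was in 0.119% of them. It lay 65 to 47 bases before the start of Hspa5, 212 to 194 and 107 to 89 bases before that of Hsp90b1, and 126 to 108 bases before that of Creld2. The Creld2 match is also the ERSE of Alg12, a glycosyltransferase gene that starts on the other strand. Herpud1 held ERSE-II 52 to 42 bases and CARE 112 to 105 bases before a RefSeq start that is 71 bases upstream of the start used for counting, and these motifs were in 0.0365% and 0.895% of promoters. The letters of the 4 motifs were not in the windows of Xbp1, Sdf2l1, Pdia4 and Dnajb9.

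The libraries had total counts of 18809046 to 22274929, of which 49.2% to 52.8% were assigned to an allele. Xist rose from 1.48 and 1.42 CPM (counts scaled to library size with TMM factors) at 0 h to between 334 and 669 CPM in the 8 samples with DOX, so the labels hold for the induced gene. Pluripotency markers were transcribed, with Esrrb at 1028, Nanog at 301 and Pou5f1 at 114 CPM on average, but Sox2 was listed at 0 in every sample. The reason for this 0 was not tested, so it is not read as a lack of transcription. Markers of other cell types were transcribed too, and their part in the results was not tested. Summed over each list they ran from 507 to 582 CPM for primitive endoderm, 109 to 164 CPM for neural, 15.0 to 22.8 CPM for trophoblast, 7.12 to 10.6 CPM for mesoderm and 2.97 to 5.90 CPM for fibroblast markers. Lama1 (333 CPM on average) and Map2 (129 CPM) made up most of the first and second sums, and T (6.58 CPM) most of the mesoderm sum. Sox1 of the neural list and Postn and Lum of the fibroblast list were also listed at 0, and the reason was not tested.

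Among the 9 members, transcription per kb of gene, introns included, was highest for Hspa5, with 18.0 ± 1.58 CPM per kb (SD, n = 10). Hsp90b1 had 14.4 ± 1.11, Xbp1 6.08 ± 0.756, Pdia4 4.74 ± 0.307 and Dnajb9 3.13 ± 0.391 CPM per kb. Herpud1 had 2.59 ± 0.224, Creld2 1.66 ± 0.258 and Sdf2l1 1.12 ± 0.242 CPM per kb. Kdelr3 was lowest with 0.476 ± 0.149 CPM per kb, and its highest sample (0.753) stayed under the lowest sample of Sdf2l1 (0.859). The ranges over the 10 samples overlapped for Hspa5 and Hsp90b1, for Xbp1 and Pdia4, for Dnajb9 and Herpud1, and for Creld2 and Sdf2l1, and for no other neighbours in this order. The other receptor genes were transcribed more than Kdelr3, at 1.72 ± 0.139 (Kdelr1) and 2.38 ± 0.139 (Kdelr2) CPM per kb.

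Kdelr3 (ENSMUSG00000010830.8, chr15:79516408-79527739, + strand, mm10) is a protein-coding gene of 11.3 kb. Its nascent RNA was 4.72 and 3.52 CPM at 0 h, 4.12 and 3.63 CPM at 4 h, 4.90 and 4.71 CPM at 8 h, 5.79 and 6.27 CPM at 12 h, and 8.53 and 7.76 CPM at 24 h, replicate 1 first. Both 12 h samples were above all samples of 0, 4 and 8 h, and both 24 h samples were above all others. The counts behind these values ran from 69 to 173 read pairs, fewer than for every other member but Sdf2l1. The log2 change from 0 h was −0.09 ± 0.19 (SE) by 4 h and 0.22 ± 0.18 by 8 h. It was 0.55 ± 0.18 by 12 h and 0.98 ± 0.17 by 24 h, a fold of 1.975. From 12 to 24 h the log2 change was 0.43 ± 0.17. Kdelr3 was number 67 of 14525 genes tested by log2 change at 24 h, and number 2 of the 10211 genes with a mean count of at least 100. Kdelr3 was chosen for being higher at 24 h than at 0 h, so these ranks and its values at 24 h restate that choice. Without 0 h replicate 2 the log2 change at 24 h was 0.77, and without 24 h replicate 1 it was 0.91.

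**Figure D1:**
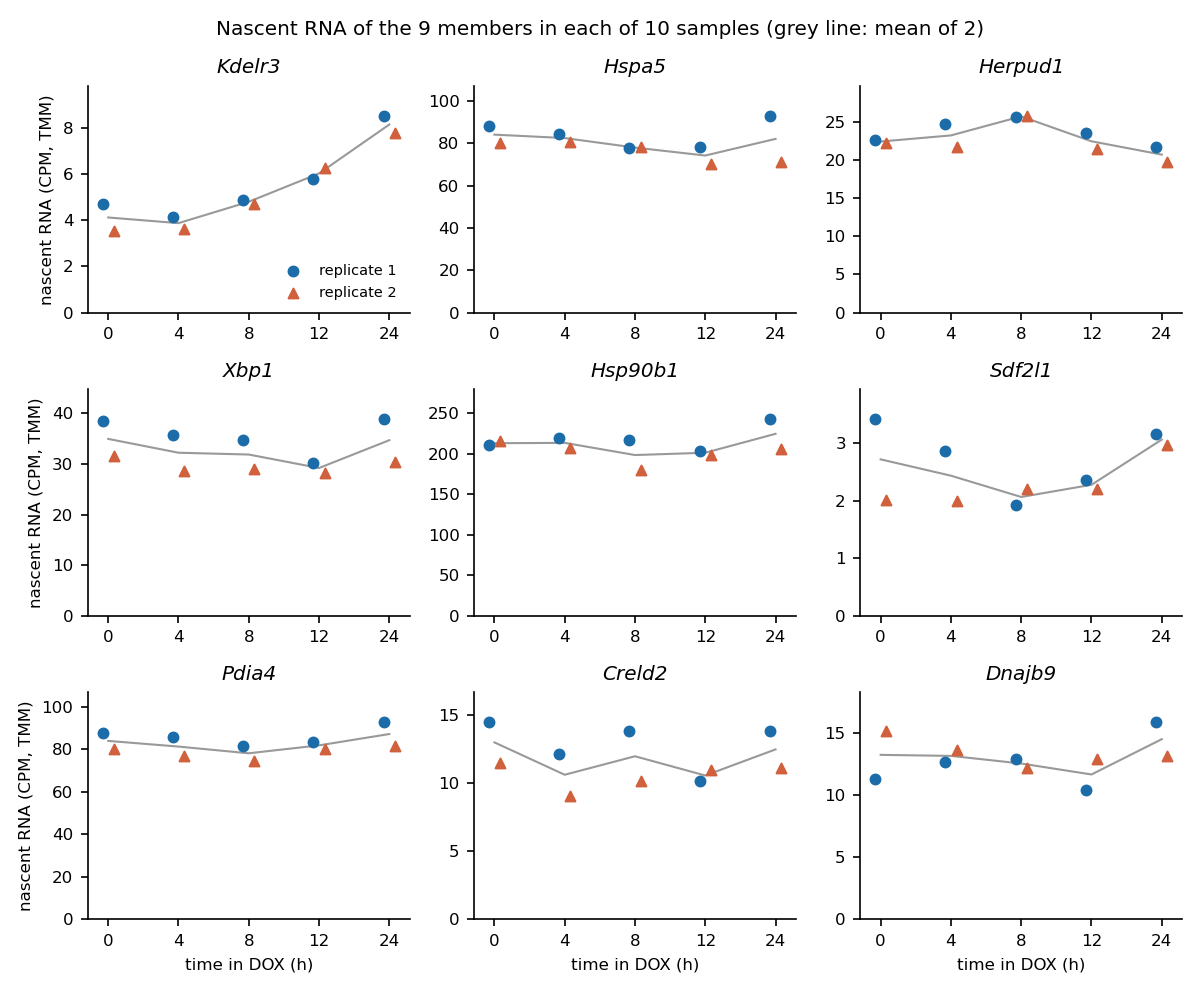
Nascent RNA (CPM, TMM scaled, axes from 0) of each of the 9 members against hours in DOX, with circles for replicate 1, triangles for replicate 2 and a grey line through the mean. Kdelr3 climbs from 3.52 to 4.72 CPM at 0 h to 7.76 to 8.53 CPM at 24 h, while replicate 2 of Xbp1 and of Pdia4 is lower than replicate 1 at all 5 times.

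The samples at 4, 8 and 12 h did not serve to choose the gene, so the step between them could be tested. The estimate of spread in that test takes in all 10 samples, those of 0 h and 24 h among them. From 4 to 12 h Kdelr3 had a log2 change of 0.64 (95% interval 0.25 to 1.02), with an unadjusted p of 0.00326 and an adjusted p of 0.222 over all genes in the edgeR quasi-likelihood test. With the replicate number as a block the log2 change was again 0.64 and the adjusted p 0.0318, a call. The block raised the number of calls in this comparison from 76 to 362 of 14525 genes (0.523% and 2.49%). The steps from 4 to 8 h (0.31, interval −0.09 to 0.71) and from 8 to 12 h (0.33, interval −0.05 to 0.70) were each not called, with adjusted p = 1.00, and 0% of all genes were called in them. None of the other 8 members was called from 4 to 12 h with or without the block, and their log2 changes ran from −0.17 to 0.01.

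The 3′ end of Kdelr3 overlaps that of Ddx17, an RNA helicase gene on the opposite strand (chr15:79527696-79546741). Counting was by strand, and the log2 change of Ddx17 was 0.12 from 4 to 12 h and 0.03 from 0 to 24 h. The other KDEL receptor genes differed little from 0 h: Kdelr1 had a log2 change of 0.04 ± 0.12 and Kdelr2 of 0.03 ± 0.09 at 24 h. From 4 to 12 h the intervals were −0.18 to 0.36 for Kdelr1 and −0.18 to 0.20 for Kdelr2. The first overlaps the interval of Kdelr3 (0.25 to 1.02), and the difference between the receptors was not tested.

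Kdelr3 was selected on the comparison of 24 h with 0 h, in which 0.31% of all 14525 genes tested were called higher and 1.54% lower (adjusted p under 0.05), and nothing is read from its own result there. None of the other 8 members was called at 24 h, and their log2 changes had a median of 0.02 and ran from −0.12 (Herpud1) to 0.17 (Sdf2l1), against a median of 0.01 for all genes. At 12 h against 0 h these 8 had a median of −0.18, and none was called, where 0.95% of all genes were. With the replicate block Kdelr3 was called at 12 h (log2 change 0.55), and the share of all genes called was 4.94%. At 4 h and 8 h no member was called against 0 h with or without the block, beside 0.0138% and 0.193% of all genes without it and 0.0344% and 0.744% with it. At an unadjusted p under 0.05 there were 0 members at 4 h, 0 at 8 h and 1 (Kdelr3) at 12 h, beside 2.09%, 4.06% and 11.5% of all genes, and DESeq2 and limma voom also called 0 at these times. With the block, 1 member had an unadjusted p under 0.05 at 4 h (Creld2, log2 change −0.29), 1 at 8 h (Herpud1, 0.20) and 4 at 12 h, beside 5.2%, 8.05% and 19.2% of all genes. The 4 at 12 h were Kdelr3, Xbp1 (−0.25, adjusted p = 0.075), Hspa5 (−0.18, adjusted p = 0.182) and Creld2 (−0.29, adjusted p = 0.202). These comparisons share the 0 h samples, which also served to choose Kdelr3. From 12 to 24 h the other 8 members had a median log2 change of 0.20 (−0.12 to 0.43), against 0.01 for all genes. None was called with or without the block, beside 1 of 14525 genes without it and 95 higher and 120 lower with it. This step shares the 24 h samples that served to choose Kdelr3, so it is a description.

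**Figure D2:**
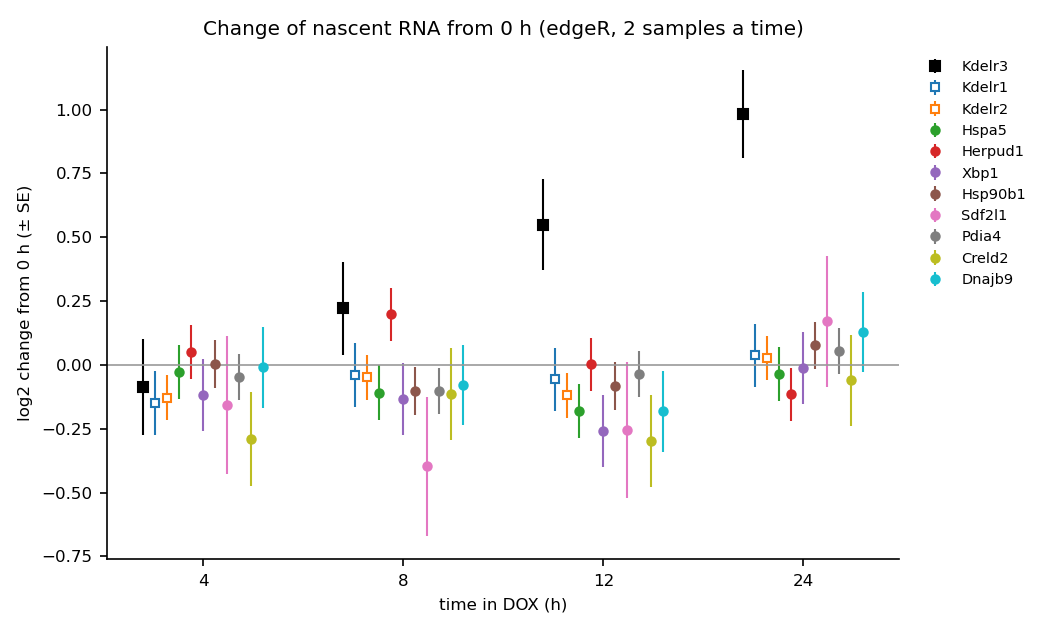
Log2 change of nascent RNA from 0 h (± SE, edgeR) at 4, 8, 12 and 24 h for the 9 members and for Kdelr1 and Kdelr2 (open squares). Kdelr3 (black) reaches 0.98 at 24 h, and the other 8 members lie between −0.12 and 0.17 there.

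Hspa5 (BiP, the main HSP70 chaperone of the ER, chr2:34772090-34776529) was at 87.9 and 80.1 CPM at 0 h, 84.3 and 80.5 CPM at 4 h, 77.9 and 78.0 CPM at 8 h, 78.2 and 70.1 CPM at 12 h, and 93.0 and 71.0 CPM at 24 h. The 24 h samples enclosed all others but 12 h replicate 2, so the times overlapped, and the log2 change at 24 h was −0.04 ± 0.11. Hsp90b1 (GRP94, the HSP90 chaperone of the ER, chr10:86690841-86705444) was the member with most counts, 3523 to 4848 read pairs. It was at 211 and 216 CPM at 0 h, 217 and 180 CPM at 8 h, and 243 and 206 CPM at 24 h, and its log2 change at 24 h was 0.08 ± 0.09.

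Dnajb9 (ERdj4, a co-chaperone of BiP, chr12:44205897-44210068) was at 11.3 and 15.2 CPM at 0 h and at 15.9 and 13.1 CPM at 24 h, so these samples overlapped. Sdf2l1 (chr16:17130138-17132383), a stress-induced partner of ER co-chaperones and the member with fewest counts (38 to 74 read pairs), was at 3.42 and 2.01 CPM at 0 h and at 3.16 and 2.96 CPM at 24 h. Its interval from 4 to 12 h (−0.69 to 0.49) was the widest of the members.

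Pdia4 (ERp72, a disulfide isomerase that ends in a KDEL-type signal, chr6:47796141-47813512) was at 87.7 and 79.98 CPM at 0 h and at 92.7 and 81.4 CPM at 24 h, a log2 change of 0.05 ± 0.09. Creld2 (chr15:88819646-88826681), a secreted ER stress protein, was at 14.5 and 11.5 CPM at 0 h, 12.2 and 9.05 CPM at 4 h, and 13.8 and 11.1 CPM at 24 h. Herpud1 (chr8:94386500-94395358), a membrane protein of the ER-associated degradation complex, was highest at 8 h (25.6 and 25.8 CPM) and lowest at 24 h (21.7 and 19.7 CPM), and its step from 8 to 12 h of −0.20 (interval −0.42 to 0.03) was not called. Xbp1 (chr11:5520641-5525993), which encodes the transcription factor that IRE1 activates by splicing its RNA, was at 38.4 and 31.5 CPM at 0 h and at 38.9 and 30.5 CPM at 24 h. These counts take in the whole gene and do not separate spliced from unspliced Xbp1 RNA.

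A further 159 genes, in 8 lists on the ER and its stress response, were in the tables, and 153 of them were tested. These genes are termed other ER genes below, though not all of them encode proteins of the ER. At 24 h against 0 h, edgeR without the replicate block called 0 higher and 0 lower. In that fit 8 (5.23%) had an unadjusted p under 0.05, beside 10.3% of all genes. With the block 1 was higher and 3 were lower, beside 1.87% and 3.46% of all genes. DESeq2 called 1 lower and limma voom none. At 12 h against 0 h without the block, 1 was lower (Prdx4) and 0 were higher. In that fit 12 (7.84%) passed an unadjusted threshold of 0.05, beside 11.5% of all genes. With the block 3 were lower and 0 higher at 12 h, beside 4.94% of all genes called in either direction. By list, the median log2 change at 24 h was 0.01 for KDEL receptors and escort (11 tested), 0.00 for ER chaperones and co-chaperones (26) and −0.01 for disulfide exchange (18). It was −0.02 for ER-associated degradation (24), −0.03 for UPR sensors and transcription factors (15), −0.04 for the PERK and ATF4 branch (18), 0.02 for ER import and signal peptide removal (21), and 0.01 for COPII and ER exit (20).

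Prdx4, an ER peroxiredoxin on the X chromosome, was at 51.6 ± 6.69 CPM at 0 h and 35.95 ± 0.724 CPM at 24 h (SD, n = 2). Its log2 change was −0.61 at 12 h (adjusted p = 0.0465) and −0.52 at 24 h (adjusted p = 0.0676). The call at 12 h was lost without 0 h replicate 2 and without any single sample of 12 h or 24 h. Mbtps2, an X-linked protease that cuts ATF6, was at −0.24 at 24 h (adjusted p = 0.359), and with the block it was called lower at 12 h and 24 h. Among genes with a mean count of at least 100, the highest values at 24 h were Spcs1, a signal peptidase subunit, at 0.39, Syvn1, the ubiquitin ligase HRD1, at 0.24, and Creb3l2, a transcription factor related to ATF6, at 0.22. None of these was called, and with the block Creb3l2 was, where the block called 1.87% of all genes higher and 3.46% lower at 24 h. Within the receptor and coat list, which holds the COPI coat that carries KDEL receptors back to the ER, the values ran from −0.12 (Copg1) to 0.10 (Copg2). At the low end of their lists were Tmx4 (−0.29) after Prdx4 in disulfide exchange, Cnpy2 (−0.18) and Manf (−0.15) among the chaperones, Selenos (−0.19) in ER-associated degradation and Atf3 (−0.22) in the PERK and ATF4 branch, where Asns, a target of ATF4, was at the high end (0.13).

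**Figure D3:**
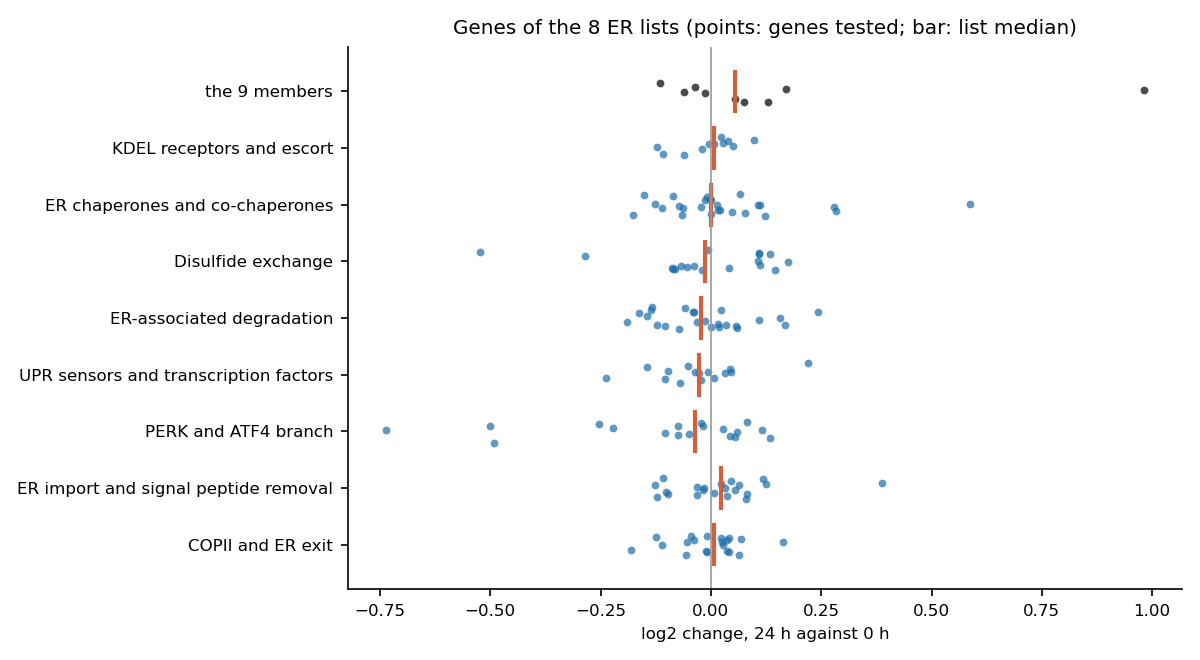
Log2 change at 24 h against 0 h of each gene tested, for the 9 members (black) and the other genes of the 8 ER lists (blue), with a bar at the list median and vertical scatter only to separate points. Kdelr3 at 0.98 stands to the right of all genes shown, and the 8 list medians lie between −0.04 and 0.02.

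Markers of cell state and of other cell types were tested over time without the replicate block. Of 38 tested, 3 (7.89%) were lower and 0 higher at 24 h, beside 1.54% and 0.31% of all genes. Otx2 (−0.84, adjusted p = 0.0159) and Lefty2 (−0.42, adjusted p = 0.019) were lower among 7 formative and primed markers tested, as was Tfap2c (−0.72, adjusted p = 0.00835) among 5 trophoblast markers. The median log2 change was 0.07 for the formative and primed, −0.72 for the trophoblast, −0.41 for the 3 mesoderm, −0.27 for the 2 neural and 0.04 for the 3 fibroblast markers tested. It was 0.00 over 9 pluripotency and −0.01 over 10 primitive endoderm markers, and none of either list was called by edgeR, with 1 of each at an unadjusted p under 0.05. The summed pluripotency markers were at 2754 to 2897 CPM at 0 h and 2862 to 2879 CPM at 24 h. Their part in the change of Kdelr3 was not tested.

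The genes whose log2 CPM followed Kdelr3 most closely over the 10 samples, among 10211 genes with a mean count of at least 100, were not ER folding genes. They were Ifnlr1, a receptor subunit for interferon lambda (Pearson's r = 0.97), Aldh2, mitochondrial aldehyde dehydrogenase (0.96), Osbpl3, an oxysterol-binding protein (0.96), Nab1, a co-repressor of EGR factors (0.95), and Fam102a (0.94). The 10 samples share 5 times, and these genes were picked as the closest of many, so the values are a description. Ifnlr1 went from 12.4 and 9.75 CPM at 0 h to 17.1 and 16.6 CPM at 24 h, and Osbpl3 from 36.4 and 34.4 to 54.3 and 51.2 CPM. With the other 8 members, Kdelr3 had r from −0.44 (Herpud1) to 0.50 (Sdf2l1).

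Several of the other members varied together. Over the same 10 samples r was 0.80 for Hspa5 and Xbp1, 0.86 for Xbp1 and Pdia4, 0.89 for Xbp1 and Creld2, and 0.82 for Hsp90b1 and Pdia4. Closest to Hspa5 were Hspa8 (0.92), the HSP70 chaperone of the cytosol, Fastk (0.91), Galk1 (0.90), Manf (0.90), an ER stress protein, and Mrpl57 (0.90). Of the 9 members, 6 had their highest value in 24 h replicate 1: Kdelr3, Hspa5, Hsp90b1, Xbp1, Pdia4 and Dnajb9.

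Several members also differed by the replicate number, which the labels give without saying what sets the replicates apart. The part of this difference in the shared variation was not tested. The comparison of replicate 2 with replicate 1 over all 5 times was added after the values were seen. It sets 1 set of 5 samples against 1 other, so its p-values do not measure the spread between independent sets. It called 4 of 9 members, all lower in replicate 2: Xbp1 (log2 change −0.27, adjusted p = 0.000803), Creld2 (−0.28, adjusted p = 0.0184), Hspa5 (−0.15, adjusted p = 0.0377) and Pdia4 (−0.13, adjusted p = 0.0414). Of all 14525 genes, 6.38% were lower and 5.34% higher in replicate 2 (11.7% in all). Xbp1 and Pdia4 were lower in replicate 2 at 5 of 5 times, and Hspa5, Hsp90b1, Creld2, Sdf2l1, Herpud1 and Kdelr3 at 4 of 5. At 24 h, Xbp1 was 38.9 CPM in replicate 1 and 30.5 in replicate 2, and at 4 h it was 35.8 and 28.7.

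Hsp90b1 (−0.12, adjusted p = 0.0768), Sdf2l1 (−0.27, interval −0.57 to 0.03), Herpud1 (−0.09) and Kdelr3 (−0.12, interval −0.33 to 0.09) were not called between replicates, nor was Dnajb9 (0.09), the member above 0. Under DESeq2 only Xbp1 was called. Leaving out both samples of 1 time left 1 to 3 members called, with Xbp1 among them each time: only Xbp1 without 24 h, and Xbp1 with 1 other without 0, 4 or 8 h.

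**Figure D4:**
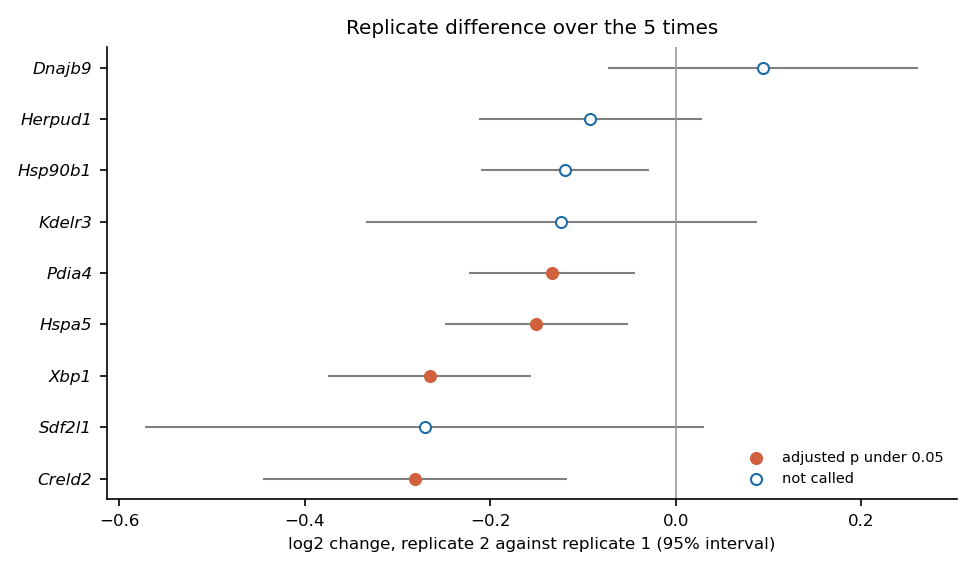
Log2 change of replicate 2 against replicate 1 over the 5 times for each member, with 95% intervals, filled where the adjusted p is under 0.05. Creld2, Xbp1, Hspa5 and Pdia4 lie below 0 with intervals that exclude it, from −0.28 to −0.13, and Dnajb9 lies at 0.09.

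Among the 153 other ER genes tested, 7 (4.58%) were lower in replicate 2 and 5 (3.27%) higher, both below the shares of all genes (6.38% and 5.34%). Calr, calreticulin (−0.15), Hyou1, an HSP110-type chaperone (−0.17), Manf (−0.22) and Pdia6, a disulfide isomerase (−0.18), were lower, as were Atf3 (−0.47), Chac1 (−0.37) and Vegfa (−0.34) of the PERK and ATF4 list. Prdx4 (0.23) and Mbtps2 (0.15) were among those higher. By list, 1 of 26 ER chaperones and 2 of 18 disulfide exchange genes were higher. So were 1 of 15 UPR sensors and factors and 1 of 21 ER import genes. The genes named here were called and were picked after their values were seen, and not all those called higher are named.

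Genes with an ERSE were also counted between the replicates. Of 37 genes with an ERSE in the promoter, 21 were tested, and 8 of them were lower in replicate 2 and 0 higher, beside 6.38% and 5.34% of all genes. The 8 were Hspa5, Creld2, Calr, Pdia6, the X-linked Xlr3a, Xlr3b and Xlr3c, and Zfp57. The Xlr3 genes are near-identical copies whose reads can be shared, so their values are uncertain and they do not count as separate genes. Hspa5 and Creld2 are members, and Calr and Pdia6 were named above because they were called. The count of 8 is thus partly drawn from those results and is no separate result. At 24 h against 0 h the 21 tested ERSE genes had a median log2 change of 0.02, with 12 above 0 and 9 below. UPRE, the motif of Kdelr3, was in the promoters of 114 tested genes, Kdelr3 among them. Of the other 113, 0 were higher and 3 (2.65%) lower at 24 h, beside 0.31% and 1.54% of all genes, with a median of −0.03, and 6 (5.31%) were higher and 7 (6.19%) lower in replicate 2, close to the shares of all genes. The 9 tested genes with ERSE-II had a median of −0.07 at 24 h and the 75 with CARE one of 0.01.

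Other measures were set beside the replicate difference. Xist was lower in replicate 2 in the edgeR comparison of the replicates (log2 change −0.35, adjusted p = 2.24e-06). With replicate 1 first, it was at 439 and 334 CPM at 4 h and 669 and 481 CPM at 8 h. It was at 661 and 516 CPM at 12 h and 477 and 415 CPM at 24 h. The part of Xist in the difference of the ER genes was not tested. Genes lower in replicate 2 had a median span of 25.2 kb and genes higher in it 57.3 kb, beside 24.0 kb for all genes tested and 7.04 kb for the members. The summed formative and primed markers were 225 to 247 CPM in replicate 1 and 212 to 223 CPM in replicate 2, so these ranges did not overlap. The pluripotency sum overlapped, at 2753 to 3102 and 2754 to 2984 CPM, as did the total counts, at 18809046 to 21414712 in replicate 1 and 19296979 to 22274929 in replicate 2. Of the 38 markers tested, 9 (23.7%) were lower in replicate 2 and 3 (7.89%) higher. Lower were Pou5f1 (−0.21), the formative markers Dnmt3b (−0.18) and Pou3f1 (−0.47), the primitive endoderm markers Col4a1 (−0.24) and Col4a2 (−0.23), Nes (−0.30), the trophoblast markers Cdx2 (−0.77) and Krt18 (−1.68), and Col1a2 (−0.63). Higher were Dab2 (0.57) and Lamb1 (0.21) of primitive endoderm, and Map2 (0.28). Their part in the difference of the ER genes was not tested.

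The B6 share, B6 read pairs over B6 and Cast read pairs, asks whether the 2 alleles of a gene changed alike. All 9 members lie on autosomes, outside the chromosome that Xist silences. None of the 8 members tested changed its B6 share at any time against 0 h in the edgeR test, and DESeq2 called none. At an unadjusted p under 0.05 there was 1 at 4 h (Hsp90b1), beside 4.98% of all genes, and 0 at 8, 12 and 24 h, beside 6.05%, 7.53% and 8.3%. Of 11906 genes tested, the share with a changed ratio was 0.353% by 4 h, 1.65% by 8 h, 2.16% by 12 h and 2.65% by 24 h.

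Before DOX, Kdelr3 had 41 and 34 B6 read pairs and 17 and 16 Cast read pairs in the 2 replicates. After 24 h it had 68 and 74 B6 and 29 and 33 Cast read pairs. These reads are part of the total counts that chose Kdelr3, so the higher number on both alleles is a description. Its B6 share was 0.707 and 0.68 at 0 h, then 0.578 and 0.818 (4 h), 0.797 and 0.804 (8 h), 0.859 and 0.699 (12 h), and 0.701 and 0.692 (24 h). The shares at 0 h and 24 h were alike, and the shares within 4 h and within 12 h were far apart. The B6 to Cast ratio at 24 h differed from 0 h by 0.02 on the log2 scale, with an interval of −0.92 to 0.96 and an adjusted p of 0.997. At 44 to 107 allelic reads per sample, a change of the ratio of up to about that interval was not detectable.

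Kdelr3 leaned to B6, with a share above 0.5 in all 10 samples. In 4 h replicate 1 (0.578) the 95% Wilson interval of 0.433 to 0.710 took in 0.5. Over the 10 samples 483 of 660 allelic reads were B6, a share of 0.732 (95% Wilson interval 0.697 to 0.764), and the mean log2 ratio of B6 to Cast was 1.35 (interval 1.08 to 1.62, adjusted p = 9.94e-17). Unequal alleles were common in this hybrid line, since 71.1% of the genes tested passed this test. The size of the lean was less common: 540 of 11543 autosomal genes (4.68%) had a higher mean B6 share than Kdelr3 (0.733), where the autosomal median was 0.522 and the quartiles 0.479 and 0.567. The receptors Kdelr1 (mean log2 ratio −0.19) and Kdelr2 (−0.23) were lower from B6 than the typical gene, which a log2 ratio of 0 stands for. Their B6 shares were 0.488 (interval 0.468 to 0.509) and 0.481 (interval 0.469 to 0.493). Ddx17, the neighbour at the 3′ end, had a mean log2 ratio of 0.13.

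**Figure D5:**
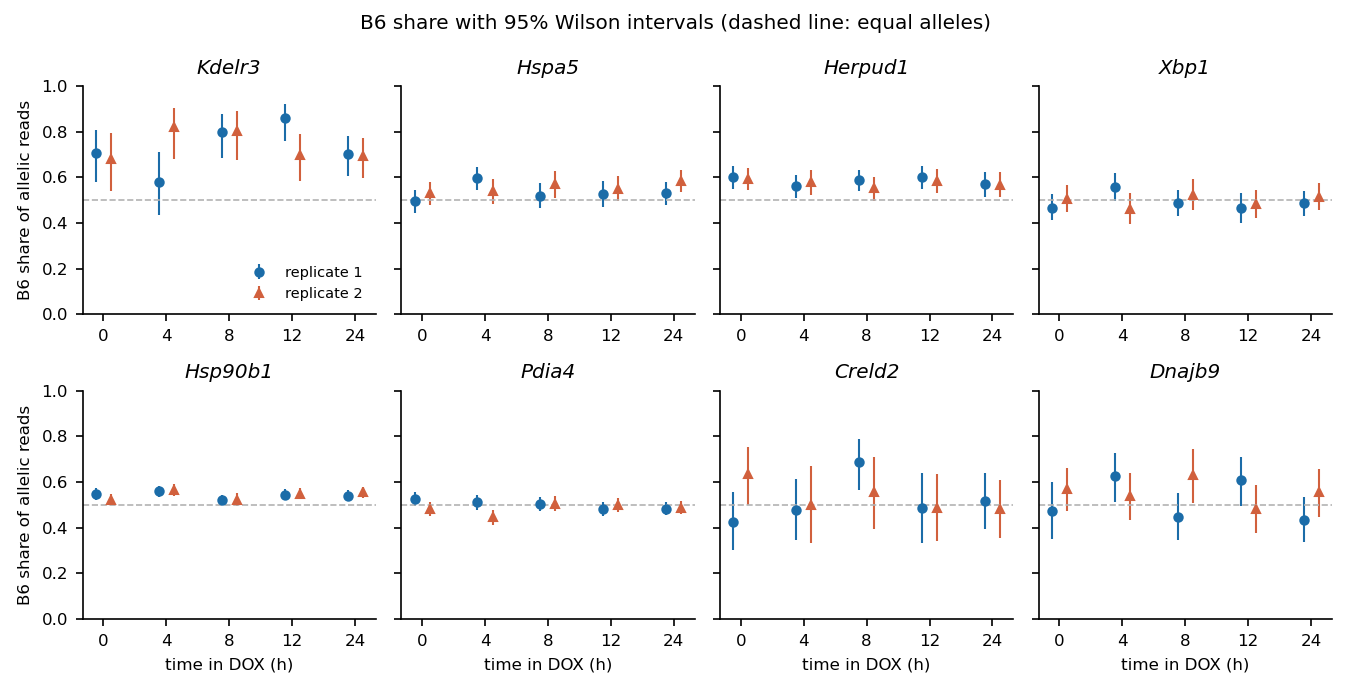
B6 share of allelic reads in each sample of the 8 members with enough allelic reads, against hours in DOX, with 95% Wilson intervals and a dashed line at equal alleles. Kdelr3 lies between 0.578 and 0.859, while Hsp90b1, with the most reads, stays between 0.522 and 0.567.

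Of the other members, Herpud1 (mean log2 ratio 0.34, share 0.58), Hsp90b1 (0.13, share 0.543) and Hspa5 (0.13, share 0.544) were higher from B6, and Pdia4 (−0.16, share 0.494) and Xbp1 (−0.15, share 0.495) were lower. A log2 ratio of 0 stands for the typical gene of these libraries, whose share is above 0.5, so a share just under 0.5 can pass the test. Creld2 (0.05, share 0.531) and Dnajb9 (0.08, share 0.534) were not called. This makes 6 of 8 members, beside 71.1% of all genes. Sdf2l1 had 2 to 11 allelic reads per sample, 27 of 81 from B6 over all samples, and was not tested.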

How the data were processed

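Total RNA was labelled with 4sU, and the labelled fraction was made into stranded libraries, pooled and sequenced in a single run. By the study's methods the authors trimmed with Cutadapt, mapped with STAR to an mm10 genome masked at strain differences, split reads by allele with SNPSplit and counted by strand with featureCounts 1.5.1. The processing notes of the submitters also name TopHat2 2.1.0 and bedtools. The deposited tables hold, per gene, raw counts of all, B6 and Cast reads, and a fraction (B6 over B6 and Cast), which equals the ratio of the deposited counts within 5.0e-07. Spike-in RNA was not used here, so values are relative to each library.

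Total counts were tested with edgeR 4.0.16 (R 4.3.3): filterByExpr, TMM, time as a factor, quasi-likelihood test, all 10 samples, two-sided, Benjamini-Hochberg adjustment over 14525 genes. Allele counts were tested in 20 columns with an intercept per sample and a B6 effect per time, for 11906 genes with at least 10 allelic reads in each sample. limma 3.58.1 and DESeq2 1.42.0 were alternatives. The scripts were tested on simulated data. Promoters came from RefSeq (GRCm38.p6) and gene types from GENCODE. Likeness is Pearson's r of log2 CPM (prior count 2). Shares carry 95% Wilson intervals, which cover counting error only, since read pairs are not independent molecules.

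Genes named are the 9 members, Kdelr1, Kdelr2 and Xist, genes of the ER lists that were called or at the ends of a list at 24 h (mean count of at least 100), and the 5 closest to Kdelr3 and to Hspa5. The members and lists were chosen with earlier results of these data known. Replicate numbers pair the samples: deviations of same-numbered samples from the mean of their time correlated in all 10 pairs of times, with r from 0.142 to 0.281. The reported fit of total counts over time leaves this pairing out, and only the fits with the replicate block take it in. Counts of 0 called without the block are therefore no sign that a gene did not change. The labels do not say that replicates are separate cultures, so p-values measure the spread between these samples. An exact test of a single value, 2 samples against 2, cannot go below 0.333.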

Additional observations from a re-analysis of the deposited data

How the results depend on the processing

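Each result was recomputed with other scaling, no filter on low counts, DESeq2, limma voom, the replicate block and without each sample. Kdelr3 was selected on 24 h against 0 h, so its place beside the threshold there is a description and shows nothing of stability. It was past it in the reported fit (1 member) and not without 0 h replicate 2 or without 24 h replicate 1 (0 to 1 members), and the log2 change of Kdelr3 ranged from 0.77 to 1.21 over left-out samples. With the replicate block, 1 member (Kdelr3) was called at 12 h against 0 h and at 12 h against 4 h, where 0 were called without it. Of the other ER genes, those lower at 12 h (1 as reported) were 0 with limma voom, 3 with the block and 0 to 2 over left-out samples. Those lower at 24 h (0 as reported) were 1 without a filter and with DESeq2, 3 with the block and 0 to 1 over left-out samples, and 1 gene was higher at 24 h with the block. The block changed no other call of a member. For the replicate difference (4 members), 1 was called with DESeq2, 2 without both samples of 0, 4 or 8 h, and 1 without both of 24 h. Members with unequal alleles (6) were 4 with DESeq2 and 5 to 6 in the other fits. The fit that asked for at least 50 allelic reads in each sample left out Kdelr3, whose lowest number was 44. No setting changed the B6 share of a member against 0 h. For the B6 share, same-numbered samples correlated by 0.0004 to 0.0324, so the numbers do not pair the samples there, and the block moved no count of members. Depth limits Sdf2l1 and Kdelr3 most in total counts, and Sdf2l1 and Creld2 in allelic reads. The cause of these differences was not tested.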
